A study of Homo sapiens with 4 samples.

Results

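The band 20q11.21 lies next to the centromere on the long arm of chromosome 20. Its members here were the 5 kb bins of chr20:29800001-32100000 (hg19, GRCh37), 460 of the 12594 bins of the chromosome. They were chosen by coordinate alone. The value of a member was its within-bin count, the number of ligation contacts whose ends both fell in that bin. This count was set against the bins of the same library in the rest of chromosome 20. From that rest, 26 to 29.8 Mb around the centromere and 55.1 to 55.7 Mb around the amplified baits were left out of the comparison. An entry of any kind in any library was found in 458 of the 460 members and in 11146 of the 11254 bins of the rest, and these bins formed the denominators.

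Gain of 20q11.21 is one of the most frequent acquired changes of human embryonic stem cells in culture. The band holds BCL2L1, whose long splice form BCL-XL blocks mitochondrial apoptosis, and ID1, an inhibitor of basic helix-loop-helix transcription factors and a target of BMP signalling. In the RefSeq gene order of GRCh38, HM13, ID1, COX4I2, BCL2L1, TPX2, MYLK2, KIF3B, ASXL1 and DNMT3B follow each other in this sequence, and 23 coding genes run from HM13 to DNMT3B. HM13 encodes an intramembrane protease, TPX2 a spindle assembly factor, KIF3B a kinesin motor subunit, ASXL1 a Polycomb-associated chromatin protein and DNMT3B a de novo DNA methyltransferase. No annotation of the build of the files was used, so the genes are not tied to single bins.

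All 4 libraries came from H9 cells, an established human embryonic stem cell line, taken towards surface ectoderm over 7 days in medium with BMP4 (5 ng/ml) and retinoic acid (1 uM). Of these, 2 were of wild-type cells and 2 of cells labelled p63-/-, which lack the epithelial transcription factor p63 and are called p63-null here. The libraries are UMI-4C, in which crosslinked chromatin is cut with DpnII, ligated and sheared, and contacts of a chosen bait are amplified, here with baits at TFAP2C. The labels do not say how many clones carry the deletion, whether the replicates are separate cultures, or which karyotype the cells had, and p-values therefore measure only the spread between these libraries. The baits lie 23 Mb from the band, so its counts are not contacts of a bait.

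DpnII cuts at GATC, so only fragments that end at this motif can give a count. To show what the enzyme reads at the genes of the band, the 250 bases before a start of BCL2L1 (chr20:31723964-31724213, GRCh38, minus strand) and of ID1 (chr20:31605039-31605288, GRCh38, plus strand) are given 5′ to 3′ from RefSeq, with each GATC in capitals. These coordinates belong to another build than the bins and cannot be set beside them.
BCL2L1: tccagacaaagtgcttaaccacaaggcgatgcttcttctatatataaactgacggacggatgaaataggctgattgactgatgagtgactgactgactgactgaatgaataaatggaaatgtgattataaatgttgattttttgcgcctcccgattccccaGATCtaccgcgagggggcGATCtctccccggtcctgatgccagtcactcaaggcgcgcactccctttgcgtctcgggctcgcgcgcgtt
ID1: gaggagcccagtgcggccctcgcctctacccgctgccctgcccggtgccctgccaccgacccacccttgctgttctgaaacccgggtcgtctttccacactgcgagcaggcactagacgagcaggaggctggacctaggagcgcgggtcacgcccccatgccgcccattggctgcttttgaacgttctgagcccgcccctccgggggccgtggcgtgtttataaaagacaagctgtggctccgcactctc
The BCL2L1 stretch holds 2 sites, which begin 89 and 71 bases before that start, and the ID1 stretch holds 0. RefSeq lists another start of BCL2L1, and the stretch before it (chr20:31722869-31723118, GRCh38) also holds 0. The motif, which reads the same on both strands, occurred in 10 of the 21 such stretches listed for 14 coding genes from HM13 to DNMT3B (47.6%). In all 35116 stretches of the table the share was 35.8%. These letters describe single stretches and say nothing of the number of sites in a bin.

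The libraries held 16744 to 44199 contacts on chromosome 20, of which 70.8 to 76.8% lay within single bins. Within-bin counts of the band were 815 and 411 in wild-type replicates 1 and 2, and 740 and 1102 in p63-null replicates 1 and 2. Single members held few of them. The median member had 1, 1, 1 and 2 counts in the same order of libraries and the highest had 9, 6, 7 and 14, so that no member reached the cap of 40 counts set for the comparison. In the rest of the chromosome 2 to 4 bins per library passed that cap. Over the 4 libraries a member held 0 to 25 counts with a median of 6, which was also the median of the rest. A count was present in all 4 libraries in 149 members, in 3 libraries in 193, in 1 or 2 libraries in 106, and in none in 12. The variance of the members' counts was 1.17 to 1.58 times their mean, against 1.69 to 1.86 in the rest. This spread mixes differences between bins with counting error, so it does not show whether intervals from counting error alone are too narrow.

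Of the 5 members with the highest totals, 4 lay in the first 2 of 5 equal blocks of the band. The bin at 30,610,001 to 30,615,000 had 9 and 3 counts in wild-type against 3 and 10 in p63-null libraries. The bin at 29,870,001 to 29,875,000 had 7 and 5 against 7 and 5. Those at 30,020,001 (3 and 6 against 5 and 9), 30,380,001 (4 and 3 against 2 and 14) and 31,415,001 (5 and 3 against 3 and 12) followed. In the last 2 bins, p63-null replicate 2, the deepest library, held more counts than the other 3 together.

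The first question was whether the band carried more counts than the rest of its chromosome, as DNA present in extra copies would if counts scaled with copies. With 3 copies of the whole band instead of 2 in every cell, its ratio to the rest would then rise 1.5-fold. Wild-type replicates 1 and 2 held 1.78 and 0.897 counts per member against 1.71 and 0.869 per bin of the rest. These are ratios of 1.04 (exact 95% counting interval 0.968 to 1.11) and 1.03 (0.934 to 1.14). The p63-null replicates held 1.62 and 2.41 counts per member against 1.76 and 2.59 in the rest, ratios of 0.916 (0.850 to 0.985) and 0.930 (0.875 to 0.988). All 4 ratios lay within 10% of 1, the wild-type above it and the p63-null below it. Intervals here and below cover counting error only. Whether amplified copies of a product were collapsed before counting is not given in the sources used here.

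**Figure D1:**
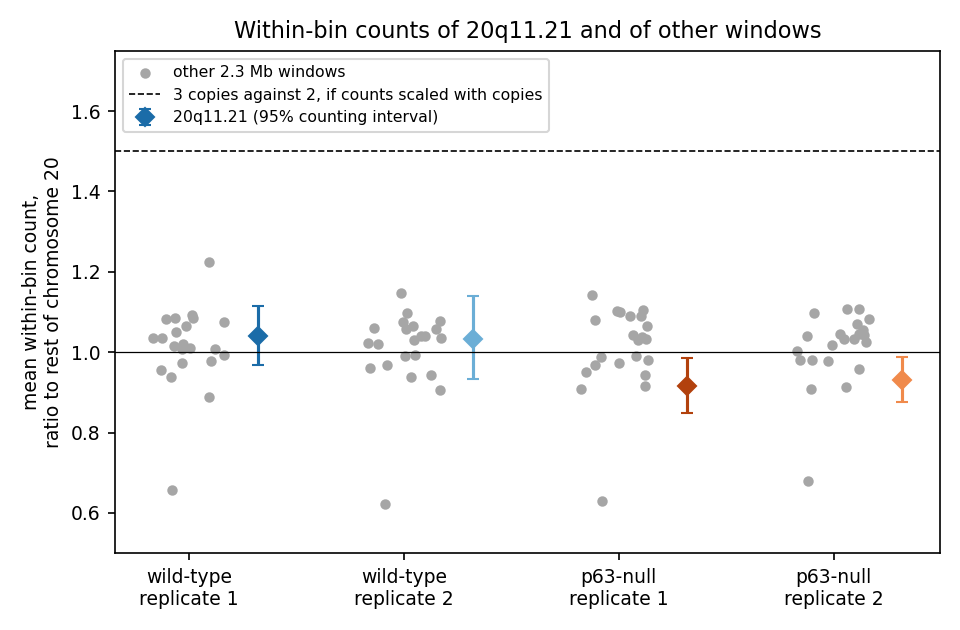
Mean within-bin count (capped at 40) of each 2.3 Mb window divided by that of the rest of chromosome 20, by library. Diamonds are 20q11.21 with exact 95% counting intervals, grey points the 22 other windows, and the dashed line marks 1.5; the diamonds sit at 1.04, 1.03, 0.916 and 0.930, and no window of any library reaches the line.

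The band was then placed among 22 other windows of 2.3 Mb tiled over the same chromosome, whose copy number was not measured either. Their ratios ran from 0.656 to 1.22 in wild-type replicate 1, with a median of 1.02, and from 0.623 to 1.15 in replicate 2, with a median of 1.03. In the p63-null replicates they ran from 0.629 to 1.14 and from 0.680 to 1.11, with medians of 1.03 in both. The lowest window in each library was that at 59.7 to 62 Mb. In the wild-type libraries 8 and 11 of the 22 windows were higher than the band, which put it in the middle of the chromosome. In the p63-null libraries 20 and 19 windows were higher, which put it near the low end. The window that follows the band, 32.1 to 34.4 Mb, had ratios of 1.22, 1.03, 1.08 and 1.11, and was the highest window in wild-type replicate 1 and p63-null replicate 2. Against that window alone, the band had a ratio of 0.849 in wild-type replicate 1, 1.00 in replicate 2, and 0.848 and 0.839 in the p63-null libraries.

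This comparison has no sample of known karyotype. The ratio of a band to its chromosome also depends on cut sites, mappability and chromatin, which were not measured here. A gain shared by all 4 libraries, small or large, could therefore not be told apart from these. A gain in part of the cells, or over part of the band, would give a ratio between 1 and 1.5 times the copy-neutral value. That value is not known for this band.

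The second question was whether the genotypes, which share cut sites and mappability, differed in the band. The mean ratio to the rest of the 2 wild-type libraries was 1.04 ± 0.0043 (SD, n = 2). That of the p63-null libraries was 0.923 ± 0.010 (SD, n = 2), and the groups did not overlap. Each of the 4 pairings of a p63-null with a wild-type library gave a quotient between 0.881 and 0.900. The mean difference was -0.17 on the log2 scale, with an exact permutation p of 0.33 (two-sided), the smallest that 2 against 2 libraries allow. Groups that do not overlap with p63-null lower made up 26.1% of the 23 windows, the band included, and those with p63-null higher 17.4%. Lack of overlap alone was therefore common.

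In the edgeR quasi-likelihood test over the 23 windows the band was the window with the smallest p. Its log2 fold change, p63-null over wild-type, was -0.17 with an SE of 0.053 and a 95% interval of -0.27 to -0.06, a ratio of 0.891 (0.829 to 0.958), with an adjusted p of 0.0454. It was the single window called, 4.35% of those tested. The SE and interval are those of counting error, since the replicates lay closer together than counting error alone would give. The adjusted p was not computed from them. It came from the F statistic of the test, which corresponds to an SE of 0.023, smaller than that of counting error. If counts scaled with copies, 3 copies of the whole band in all p63-null cells against 2 in wild-type would give a ratio of 1.5. The reverse would give 0.667. The interval of the ratio held neither value. A gain in only part of the cells of a single genotype, or over only part of the band, would give a ratio between them. The cause of the difference was not tested. The call held with a cap of 10 (edgeR adjusted p 0.0382). It was lost without a cap (0.0678), with TMM scaling (0.123), with a replicate block (0.135), with DESeq2 (0.876), and when any library was left out, while the log2 fold change stayed between -0.18 and -0.16. The adjusted p of edgeR's quasi-likelihood test rose to 0.903 when wild-type replicate 1 was left out and to 0.394 when it was replicate 2. It was 0.113 and 0.0753 when replicates 1 and 2 of the p63-null cells were left out in turn.

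The differences of the 22 other windows, as log2 of the ratio in p63-null minus wild-type, ran from -0.14 to 0.11 with a median of 0.02 and an SD of 0.072. The band, at -0.17, lay below all of them. Among 496 overlapping windows of the same size, moved in steps of 100 kb, 3 were lower and the lowest, starting at 33.8 Mb, was at -0.19. These windows share counts with each other and are a description of the chromosome, not a test.

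**Figure D2:**
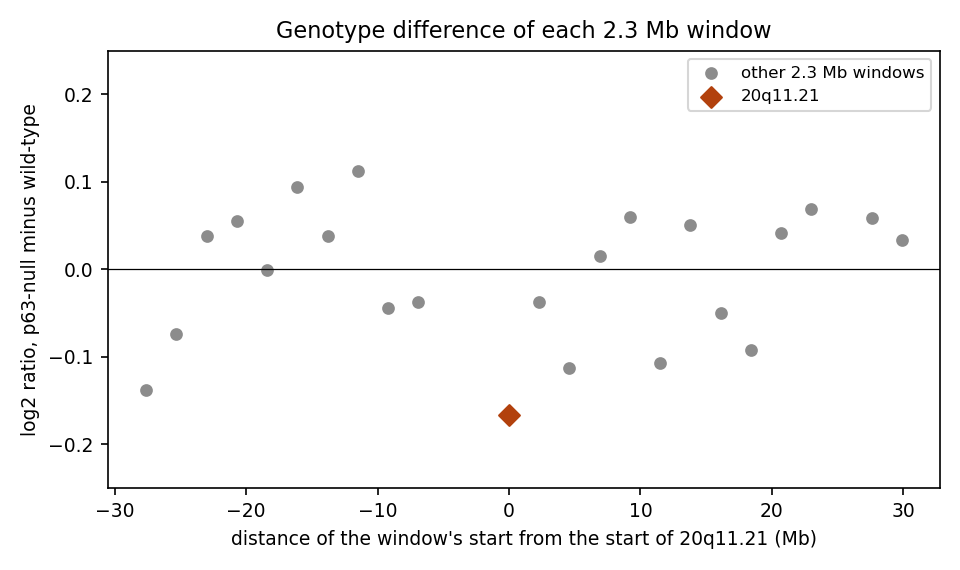
Difference of log2 ratio to the rest of chromosome 20, p63-null minus wild-type (means of 2 libraries each), for the 23 windows of 2.3 Mb, by distance in Mb of the window's start from the start of 20q11.21. The band, at -0.17, is the lowest point, and the others lie between -0.14 and 0.11.

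The counts of the band were then read in 5 blocks of 92 bins, 460 kb each, to ask whether the difference ran along its whole length. Block 1, at 29,800,001 to 30,260,000, borders the left-out centromeric interval and holds both members without an entry. Its ratios to the rest were 1.14 and 1.27 in wild-type against 0.913 and 0.907 in p63-null libraries, so the genotypes stood apart, with a log2 difference of -0.40. The same quantity in 120 stretches of this length elsewhere on the chromosome ran from -0.34 to 0.34, and in 19.2% of them both p63-null libraries lay below both wild-type libraries. Block 2 had 1.11 and 0.914 against 0.973 and 1.00, and block 3 had 0.927 and 0.989 against 0.949 and 0.891. In both of these the genotypes overlapped. Block 4 had 1.02 and 1.09 against 0.998 and 0.870, without overlap. Block 5, which ends at 32,100,000, had 0.997 and 0.914 against 0.745 and 0.983, where p63-null replicate 1 was the lowest of all 20 values and replicate 2 lay between the wild-type libraries. The difference was below 0 in all 5 blocks, at -0.03, -0.06, -0.18 and -0.16 in blocks 2 to 5. The 120 stretches elsewhere had a median of 0.01, with a 5th percentile of -0.24 and a 95th of 0.25. Blocks 2 to 5 lay between these percentiles, so their values were common on the chromosome. Without block 1, a choice made after its values were seen, the band had ratios of 1.01 and 0.976 in wild-type against 0.916 and 0.936 in p63-null libraries, a log2 difference of -0.10. The groups still did not overlap, with an exact permutation p of 0.33.

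**Figure D3:**
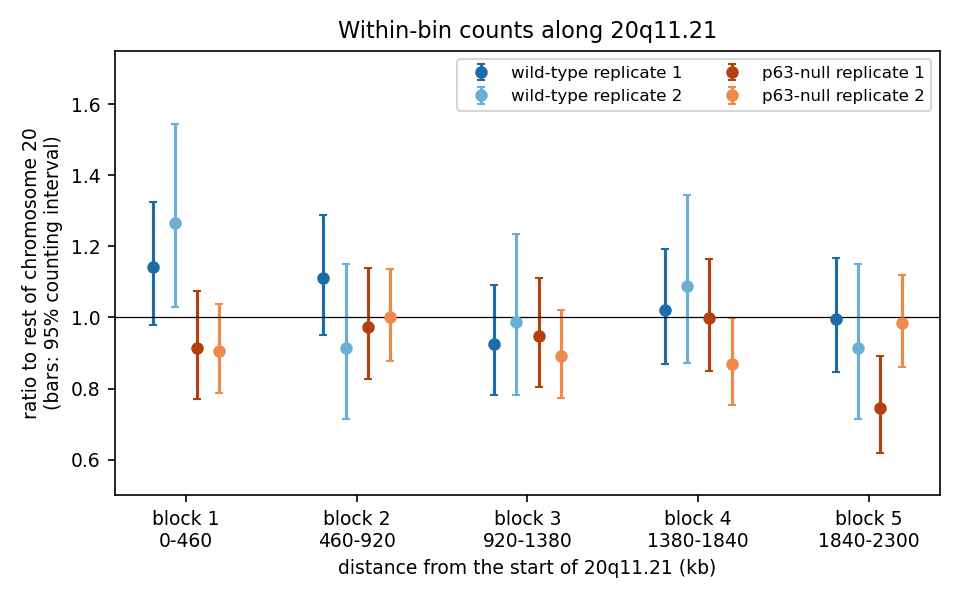
Ratio of the mean within-bin count to the rest of chromosome 20 in 5 blocks of 460 kb, by distance in kb from the start of 20q11.21. Points are libraries and bars exact 95% counting intervals; the wild-type libraries stand above the p63-null libraries most clearly in block 1, at 1.14 and 1.27 against 0.913 and 0.907.

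Windows of 50 kb gave the same picture at lower depth. The 46 windows of the band held 6 to 35 counts with a median of 17 in wild-type replicate 1, and 4 to 17 with a median of 8.5 in replicate 2. In p63-null replicates 1 and 2 they held 7 to 26 with a median of 16, and 11 to 35 with a median of 23. None of the 46 passed the edgeR test adjusted over 1167 windows of the chromosome, of which 0% were called. At an unadjusted p under 0.05 were 2 of the 46 (4.35%), near the 5.48% of all windows, and DESeq2 called 0 of the 1167, with 2 of all and 0 of the 46 at that level. The p63-null libraries lay below both wild-type libraries in 18 of the 46 windows (39.1%), against 17.6% of all windows, and above both in 5 (10.9%), against 18.6%. The median log2 fold change was -0.16 in the band and 0.02 over all windows, and 29 of the 46 values were below 0, against 559 of all 1167 windows (47.9%).

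The 5 windows with the smallest p were all lower in p63-null cells, with an edgeR adjusted p of 0.829 each. The window at 29,950,001 to 30,000,000 had 27 and 14 counts in wild-type against 18 and 20 in p63-null libraries, a log2 fold change of -0.86 (SE 0.34). That at 32,000,001 to 32,050,000 had 24 and 9 against 13 and 18, a log2 fold change of -0.83 (SE 0.37). The remaining 3 began at 32,050,001 (22 and 9 against 9 and 23), 31,500,001 (25 and 12 against 19 and 21) and 29,900,001 (21 and 12 against 17 and 18). Of the 5, 2 lie in block 1 and 2 next to each other at the distal end of block 5. These are raw counts, to be read against library sizes of 19084 and 9681 in wild-type replicates 1 and 2 and of 19669 and 28826 in the p63-null replicates.

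Single members were too sparse for more. At least 10 counts over the 4 libraries were held by 93 members (20.3% of those with an entry, against 22.7% of the rest). None of the 93 passed the edgeR test, adjusted over 2618 bins of the chromosome of which 0% were called. At an unadjusted p under 0.05 were 3 of the 93, against 3.36% of all bins tested, and DESeq2 called 0 bins, with 0 of the 93 and 5 of all at that level. The p63-null libraries lay below both wild-type libraries in 19 members (20.4%, against 18.1% of all bins) and above both in 8 (8.60%, against 16.3%). The bin with the smallest p, 30,675,001 to 30,680,000, had 0 and 0 counts in wild-type against 5 and 5 in p63-null libraries. It reached the filter of 10 counts only through the p63-null libraries, so it had to differ, and its edgeR adjusted p was 0.945. The next 4 were lower in p63-null cells and did not pass either. They began at 31,270,001 (5 and 4 against 1 and 3), 29,970,001 (6 and 5 against 4 and 2), 31,320,001 (4 and 3 against 1 and 2) and 29,995,001 (5 and 4 against 3 and 2).

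A further readout uses each bin once per library, however many counts it holds. Members with any count made up 77.3% and 55.7% in wild-type against 77.9% and 87.6% in p63-null libraries. The rest of the chromosome had 75.2%, 54.1%, 77.2% and 87.0%, so the band was slightly above it in all 4 libraries. Turned into a rate, as minus the natural log of the share of empty bins, the ratio of the band to the rest was 1.06 and 1.05 in wild-type against 1.02 and 1.02 in p63-null libraries. The difference between genotypes was -0.04 on the log2 scale, with 6 of the 22 other windows lower and 16 higher. The band therefore stood at the end of the windows by counts, but not by the share of bins with a count. Among bins with a within-bin count in the library itself, the mean count of the band relative to the rest was 1.01 and 1.00 in wild-type against 0.907 and 0.924 in p63-null libraries. Members with 5 or more counts made up 6.33% and 1.09% in the wild-type libraries, where the rest had 5.97% and 0.619%. In p63-null replicates 1 and 2 they made up 3.93% and 14.8%, where the rest had 6.01% and 15.7%. By this share the band was above the rest in both wild-type libraries and below it in both p63-null libraries, which was not tested. The wild-type shares rest on 29 and 5 members and lay close to those of the rest. No such share is given for other windows.

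Contacts between different bins, which the choice of members and the counts above did not use, gave another readout. The ends of such contacts were counted in the band and in the rest, leaving out every contact with an end in the bait interval. The band held 459 and 248 ends in wild-type against 371 and 716 in p63-null libraries. Per bin and relative to the rest this was 0.957 (exact 95% counting interval 0.870 to 1.05) and 0.907 (0.796 to 1.03) in wild-type, and 0.834 (0.750 to 0.925) and 0.870 (0.807 to 0.938) in p63-null libraries. Both ends of a contact inside the band count separately, which makes these intervals too narrow. All 4 ratios were below 1, and both p63-null libraries lay below both wild-type libraries, which also held in 5 of the 22 other windows (26.1% of 23 with the band). The means were 0.932 ± 0.035 and 0.852 ± 0.025 (SD, n = 2 each), a log2 difference of -0.13 with an exact permutation p of 0.33. Of the 22 other windows, 3 had a lower difference and 19 a higher one, in a range from -0.23 to 0.19. For contacts beyond 20 kb the difference was -0.05, and the groups overlapped (exact permutation p 0.67). For contacts within 1 Mb it was -0.23.

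**Figure D4:**
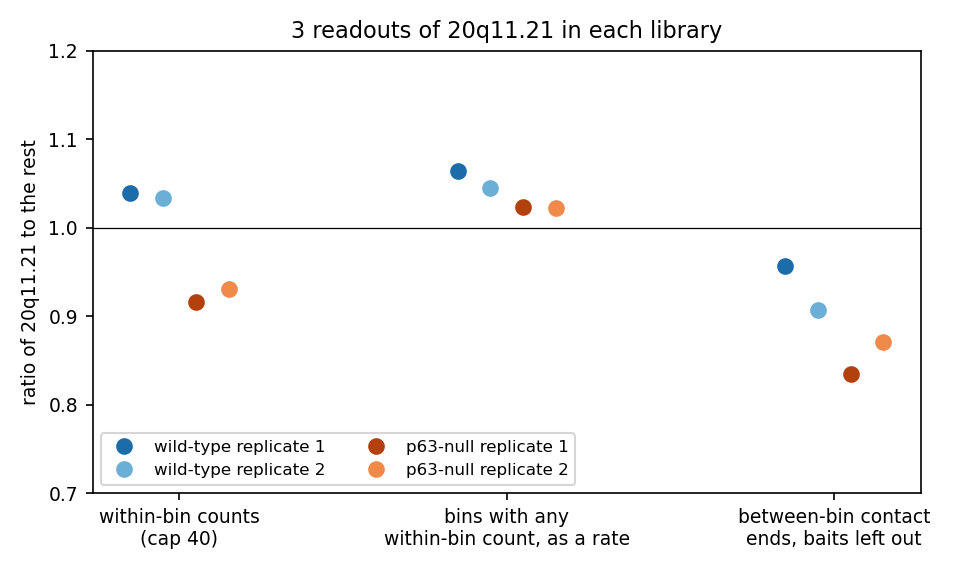
Ratio of 20q11.21 to the rest of chromosome 20 in each library (points), for within-bin counts, for the share of bins with any count turned into a rate, and for ends of between-bin contacts. The wild-type points lie above the p63-null points in all 3 readouts, with 1.04 and 1.03 against 0.916 and 0.930 in the first and 1.06 and 1.05 against 1.02 and 1.02 in the second.

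Contacts that touched the band numbered 298 and 159 in wild-type against 249 and 474 in p63-null libraries. Both ends lay inside it in 54.0% and 56.0% of them in wild-type and in 49.0% and 51.1% in p63-null libraries. Partners within 20 kb made up 27.6 to 30.9%, and partners beyond 1 Mb 40.9% and 39.0% against 47.4% and 44.5%. No pair of bins was counted more than 3 times. Both p63-null libraries thus had a larger share of far partners than both wild-type libraries, with no test of this difference. No such shares are given for other windows, so whether this is particular to the band is not known.

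The likeness of the libraries along the band did not follow genotype in a fixed order. Over its 46 windows of 50 kb, which are not independent replicates and share depth and mappability, Pearson's r was 0.21 for the wild-type pair, 0.41 for the p63-null pair and 0.26 to 0.33 for the 4 pairs across genotypes. Spearman's rho was 0.35, 0.43 and 0.26 to 0.38 in the same order, so the place of the wild-type pair depended on the measure. The chi-square per degree of freedom over these windows was 0.955 for the wild-type and 0.854 for the p63-null replicates, within sampling noise (chi-square p 0.559 and 0.744). Over the whole chromosome the wild-type replicates differed by more than sampling noise (1.11, chi-square p 0.00639, 1154 windows), and no difference was detectable between the p63-null replicates (0.995, chi-square p 0.538, 1167 windows). Over single 5 kb bins the same held, with 2.10 for the wild-type pair (87 bins, chi-square p 1.21e-08) and 1.05 for the p63-null pair (654 bins, chi-square p 0.166). In contacts of the bait interval both pairs differed, the wild-type by 2.47 (59 pairs of bins, chi-square p 3.6e-09) and the p63-null by 4.15 (38 pairs of bins, chi-square p 3.58e-16), and each library was kept as a sample of its own.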

How the data were processed

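The deposited values of the 4 UMI-4C libraries were raw contact counts for each pair of 5 kb bins on chromosome 20, not normalized. HiC-Pro and Bowtie were used with build hg19 (GRCh37), per the submitters' processing notes, with no versions given in the sources used here. Whether copies of a product were collapsed is also not given. Pairs absent from a file were taken as 0. Counts were capped at 40 per bin and library, and library size was the capped total over the rest of the chromosome (9681 to 28826). Windows of 2.3 Mb and 50 kb and single bins were tested with edgeR 4.0.16 in R 4.3.3 (genotype only, at least 10 counts for 50 kb windows and bins, Benjamini-Hochberg adjustment over all features of a size, threshold 0.05). Each other window stayed part of the rest it was divided by. Single values were compared with an exact permutation test. The cap changed no member, only bins of the rest, and counts without a cap were an alternative. Other alternatives were caps of 10 and 5, occupancy, other denominators, no filter, TMM, DESeq2 1.42.0 (with a local dispersion fit over the 2.3 Mb windows), a replicate block and leaving out each library. The short arm as denominator, the chromosome without its end and the band without block 1 were added after the data were seen. Named windows and bins were those with the smallest p (5 each), the 5 members with the highest totals, the following window and the extremes, and any bin above the cap (none). The members were set by coordinate, but they, the lists and the tests were chosen with earlier results of these data known. Gene names came from RefSeq (GRCh38.p14), where all 9 named genes matched, and 5 had a promoter sequence.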

Additional observations from a re-analysis of the deposited data

Results flagged for a closer look

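Contacts between the band and the bait interval at 55.1 to 55.7 Mb lie outside the comparisons and were above the limit that a count of 0 allows (3 counts). They numbered 21 and 15 in wild-type replicates 1 and 2, and 21 and 18 in p63-null replicates 1 and 2. The total of 75 was exceeded in 3 of 15 other windows of 2.3 Mb more than 10 Mb from the bait interval, which held 24 to 190 with a median of 51. These 3 lay 11.5, 13.8 and 16.1 Mb from it, nearer than the band at 23 Mb. The windows at 18.4 and 20.7 Mb held 66 and 50, and those farther than the band held at most 67. As distinct pairs of bins the band had 49, against 21 to 62 with a median of 37.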

How the results depend on the processing

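The difference of the band between genotypes stayed below 0 in every alternative run. As log2 of the ratio to the rest it was -0.18 to -0.04 over 17 alternatives, and -0.18 to -0.16 when a library was left out. Several of these runs could not change its sign. The replicate block, and counting bins without an entry as 0, return the main difference of -0.17 by arithmetic. Leaving out a library cannot reverse groups that do not overlap. The smallest difference came from the share of bins with any count, where the p63-null ratios moved to 1.02 and 1.02. With the following 2.3 Mb as denominator, the ratio moved to 0.849 in wild-type replicate 1, 0.848 in p63-null replicate 1 and 0.839 in p63-null replicate 2, since that window is itself high. For between-bin contacts the difference was -0.23 to -0.05 over 8 alternatives. Of these, the runs without a cap and with the replicate block returned the main value of -0.13. Leaving out a library, which could not reverse the sign here either, gave -0.17 to -0.09. At -0.05, for contacts beyond 20 kb, the groups overlapped.

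The edgeR call of the band did not last. Its log2 fold change was -0.16 without a cap, -0.17 with TMM scaling, -0.17 with the replicate block and -0.16 with DESeq2, and -0.18 to -0.16 when a library was left out, and in each of these 0 windows were called instead of 1. At an unadjusted p under 0.05 were 2 windows with TMM, 3 with the block and 0 with DESeq2. With a library left out the lone sample of a genotype is assumed to vary like the other genotype. The cause of the lost calls was not tested. Calls of 50 kb windows and of bins were 0 in all alternatives. Whether replicate numbers pair the libraries is not known. The replicate differences of wild-type and p63-null correlated at r = 0.0042 over 1167 windows of 50 kb. In windows of this size the p63-null replicates did not differ beyond sampling noise (0.995 per degree of freedom, chi-square p 0.538). A correlation near 0 therefore cannot show whether the libraries were paired. As a block, the replicate numbers return the same mean differences by arithmetic, -0.17 for within-bin counts and -0.13 for between-bin contacts. The exact permutation p within replicate numbers was 0.5 for each. Depth limits single members, with a median of 6 counts over the 4 libraries.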
